A study of Mus musculus with 9 samples.

Results

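The interferon response genes are 33 transcripts that cells raise when interferon binds its receptor. They were taken by gene symbol from a table of gene counts for mouse hearts. The rule uses no measured value, but the symbols were listed with earlier results of these data known. All 33 symbols were found once each among the 55401 rows of the table, and all 33 passed the low-count filter that left 19051 genes for testing. The study measured total heart RNA by RNA sequencing in 3 groups of 3 male mouse hearts. Control hearts came from wild-type, sham-operated mice. TAC hearts were wild type and had transverse aortic constriction, an operation that narrows the aorta and so overloads the left ventricle, and their titles give 12 weeks. KO-TAC hearts, also titled 12 weeks, had the same operation in mice with both c-Myc alleles floxed and a tamoxifen-inducible Cre driven by Tcf21, a gene of cardiac fibroblasts. Mice were operated on at 8 to 12 weeks of age. Tamoxifen is described at 45 mg/kg on 5 days in a row for the knockout line. Its use in wild-type mice was not stated in the sources used. Neither knockout hearts without TAC nor Cre hearts without the floxed alleles were analysed here, so Cre, tamoxifen and loss of Myc cannot be told apart in the KO-TAC hearts.

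Type I interferons bind the receptor chains Ifnar1 and Ifnar2, and the kinases Jak1 and Tyk2 then activate a complex that holds Stat2 and Irf9 and binds the interferon-stimulated response element, a DNA element in the promoters of antiviral genes. Interferon gamma acts through Ifngr1 and Ifngr2 and the gamma-activated sequence, another DNA element, and raises Irf1 and many large GTPases. In the heart, such genes are expressed by muscle cells, endothelium, fibroblasts and immune cells, and nucleic acids released from damaged cells are a known trigger.

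Promoter sequence from RefSeq (GRCm38.p6), from 250 bases before to 50 bases after a start site, was found for 25 of the 33 members. Both strands were searched for GAAANNGAAA, the core of the interferon-stimulated response element, and for TTCNNNGAA, the gamma-activated sequence, and a base may belong to a match of each. The first motif was present in 16 of these 25 genes (64%), against 3.99% of 27025 genes with a window. The second was present in 7 of 25 (28%), against 9.55%. A match is a description of the letters and does not show binding. The 9 stretches that follow lie before the start sites of Oas1a, Bst2 and Stat2, which were highest in TAC replicate 3, of Isg15 and 3 Ifit genes, classical markers of an interferon response, and of Igtp and Irgm1, which were highest in control replicate 2. Only genes with a match are shown. Irf7, Irf9 and Oasl2, also highest in TAC replicate 3, had neither motif in their windows. Irf1 and Ifi35, highest in that heart too, lacked the first motif. Capitals mark matches to either motif, and TTTCNNTTTC is the first motif read on the other strand.
Oas1a (chr5:120907526-120907564, minus strand): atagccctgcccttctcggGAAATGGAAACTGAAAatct
Bst2 (chr8:71537562-71537621, minus strand): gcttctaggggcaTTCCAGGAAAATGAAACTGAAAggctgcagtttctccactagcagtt
Isg15 (chr4:156200850-156200909, minus strand): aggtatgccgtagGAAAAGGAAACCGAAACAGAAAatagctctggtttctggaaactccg
Stat2 (chr10:128270251-128270310, plus strand): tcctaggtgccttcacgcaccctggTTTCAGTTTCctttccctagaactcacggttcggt
Ifit1 (chr19:34640779-34640838, plus strand): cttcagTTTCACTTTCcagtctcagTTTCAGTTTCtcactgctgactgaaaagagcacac
Ifit3 (chr19:34583382-34583441, plus strand): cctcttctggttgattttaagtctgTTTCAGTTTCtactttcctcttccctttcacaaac
Ifit3b (chr19:34607778-34607837, plus strand): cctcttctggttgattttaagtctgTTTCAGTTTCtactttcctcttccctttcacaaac
Igtp (chr11:58199497-58199555, plus strand): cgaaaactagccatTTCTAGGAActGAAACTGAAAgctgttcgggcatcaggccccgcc
Irgm1 (chr11:48871421-48871469, minus strand): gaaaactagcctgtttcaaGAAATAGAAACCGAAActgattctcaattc
Igtp and Bst2 carried both motifs within the stretch, and in Bst2 the matches overlapped. Ifit3 and Ifit3b had the same 60 bases.

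Libraries held 59702513 (TAC replicate 3) to 109162107 (KO-TAC replicate 1) counts. Values below are CPM, counts normalised to library size with factors from the trimmed mean of M values (TMM). Myc, the targeted gene, stood at 2.15, 2.47 and 1.55 CPM in control hearts, 8.93, 6.22 and 14.2 in TAC hearts, and 4.22, 1.87 and 4.75 in KO-TAC hearts, so its whole-heart level was lower in every KO-TAC than in every TAC heart. Libraries of the TAC group differed in their cell type markers. The summed CPM of 11 cardiomyocyte markers was 47500, 96000 and 14300 in TAC replicates 1, 2 and 3, against 86000 to 88100 in control and 49900, 72700 and 81800 in KO-TAC replicates 1, 2 and 3. The sum of 10 fibroblast markers was 3420, 1610 and 4160 in the TAC hearts, 1580 to 1780 in control hearts, and 2250, 2160 and 1860 in the KO-TAC hearts. In bulk tissue, more cells of a type and more RNA per cell cannot be told apart. The labels do not state that the hearts of a group are from separate mice, so the p-values below reflect the spread between these samples only, which may be technical.

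Across the 33 members, the fitted difference between TAC and control was positive for 27 and negative for 6, with a median log2 difference of 0.48 (1.40-fold) against 0.03 over all genes tested. Between KO-TAC and TAC it was positive for 8 and negative for 25 (median -0.27, all genes 0.01). Between KO-TAC and control it was positive for 28 and negative for 5 (median 0.18, all genes 0.04). The first and second comparisons share the TAC hearts, so the opposite signs of their medians are not independent. By edgeR's quasi-likelihood test with Benjamini-Hochberg adjustment over all genes, 0 of 33 members passed an adjusted p of 0.05 in any of the 3 comparisons, and 0% of all genes did. The lowest adjusted p of a member was 0.14, 0.65 and 0.85 in the order of the comparisons above. At an unadjusted p under 0.05 there were 6, 1 and 0 members, against 21.3%, 7.45% and 5.76% of all genes.

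Other tests on the same counts gave more calls between TAC and control. DESeq2 called 3 members higher in TAC, Oas2, Ifi27l2a and Ifi35, against 5.67% of all genes called higher. Limma-voom with quality weights, which gives libraries that stand apart less weight, called 18 members higher, against 18.2% of all genes. Without TAC replicate 2, edgeR called 11 members higher, against 13.5% of all genes. Between KO-TAC and TAC, limma-voom called 1 member lower, Ifi27l2a, against 1.93% of all genes, and DESeq2 called 0. Between KO-TAC and control, DESeq2 and limma-voom each called 0 members, against 0.467% and 5.2% of all genes in either direction. Leaving out a single TAC heart moved the medians. The TAC to control median was 0.79 without TAC replicate 2 and 0.23 without TAC replicate 3. The KO-TAC to TAC median was -0.59 without TAC replicate 2 and 0.03, of the other sign, without TAC replicate 3. The KO-TAC to control median was -0.05 without KO-TAC replicate 1.

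**Figure D1:**
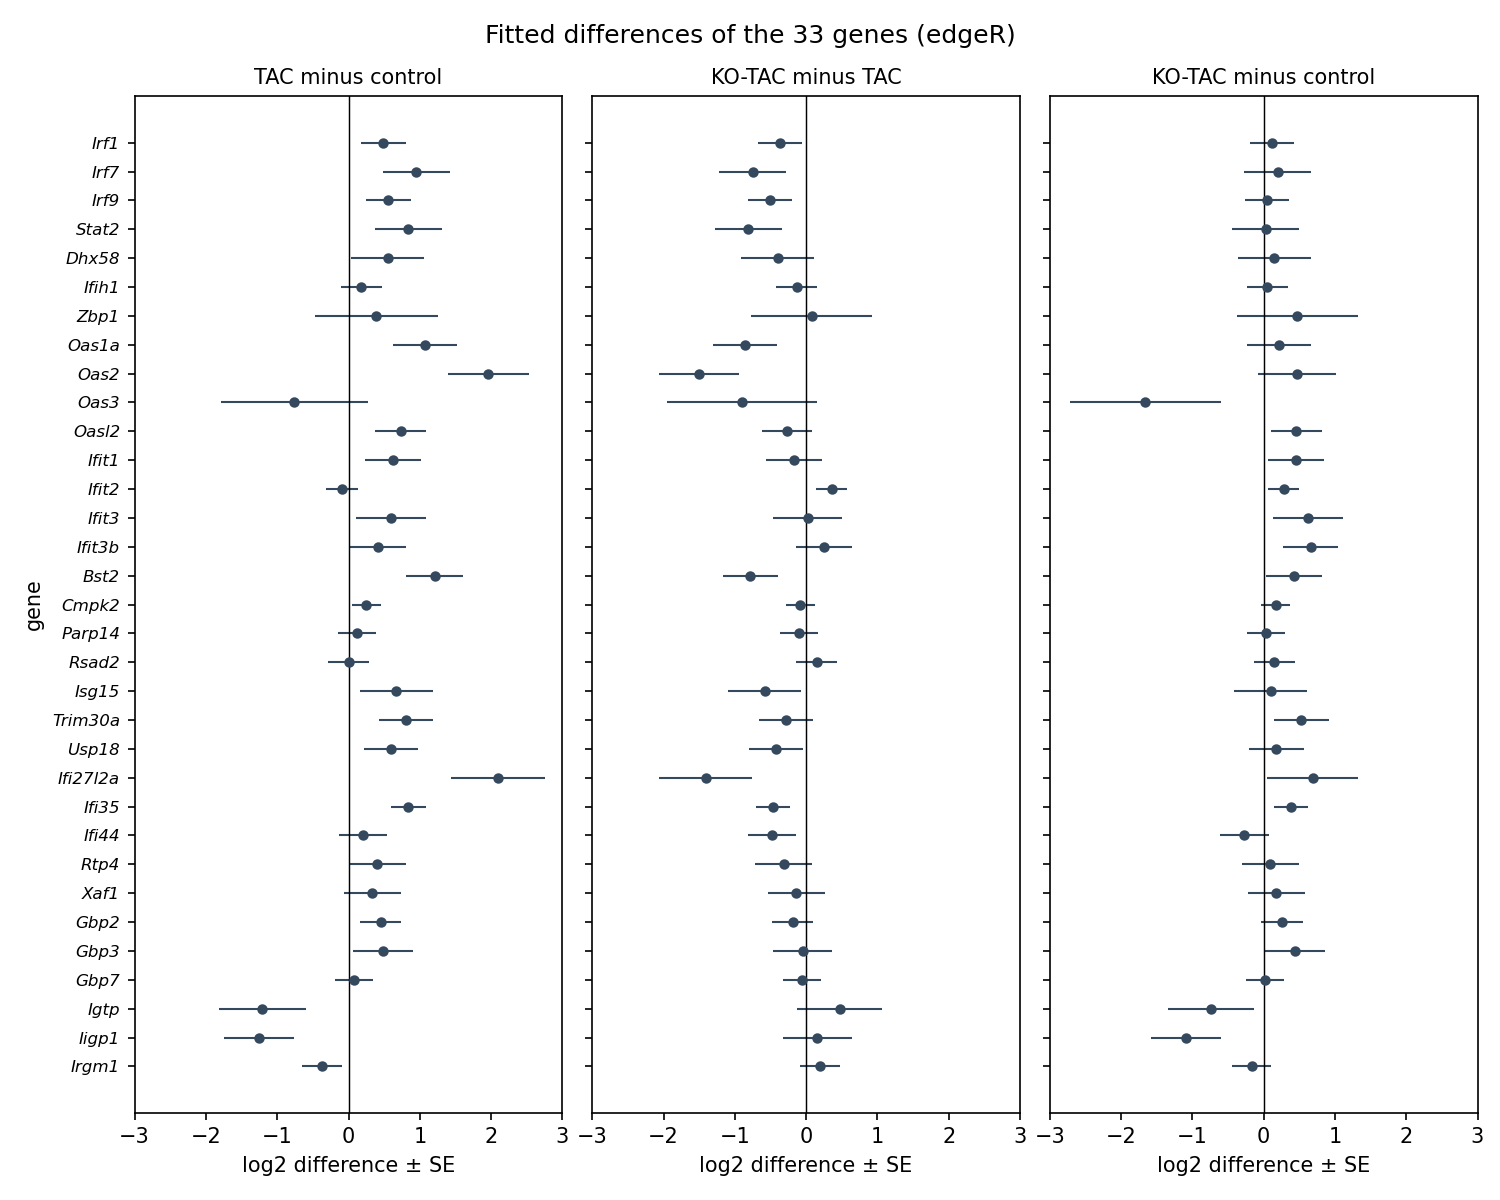
Fitted log2 differences of the 33 genes (x axis, edgeR, bars are ± 1 SE) for the 3 comparisons, with genes grouped by role on the y axis. Most points lie right of 0 for TAC minus control (27 of 33) and left of 0 for KO-TAC minus TAC (25 of 33), and Ifi27l2a and Oas2 lie farthest out in both.

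The members varied from heart to heart within each group, and largely together. TAC replicate 2 had the lowest level of its group for 31 of 33 members, where it was lowest for 41.5% of all genes. The exceptions were Ifit2 and Iigp1, lowest in TAC replicate 3. TAC replicate 3 was highest for 22 members and TAC replicate 1 for the other 11. KO-TAC replicate 1 was the highest of its group for 32 members, against 40.6% of all genes, and Rsad2 was the exception. Control replicate 2 was the highest control for 30 members, against 32.6% of all genes. Relative to the control mean on a log2(CPM + 0.5) scale, the median member stood at -0.01, 0.26 and -0.27 in the control hearts, at 0.60, -0.34 and 0.82 in the TAC hearts, and at 0.49, -0.07 and 0.01 in the KO-TAC hearts, each in the order of replicates 1, 2 and 3. TAC replicate 2 thus lay below every control heart, and KO-TAC replicate 1 between TAC replicates 2 and 1. On the same log2(CPM + 0.5) scale, 13 members were more than 2-fold above the control mean in TAC replicate 3. There were 5 each in TAC replicate 1 and KO-TAC replicate 1, 2 in control replicate 2, and 0 in TAC replicate 2. The share of all genes beyond that bound was not counted in any heart, so it is not known whether these counts are unusual. The median of all genes tested lay between -0.01 and 0.05 in every heart.

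**Figure D2:**
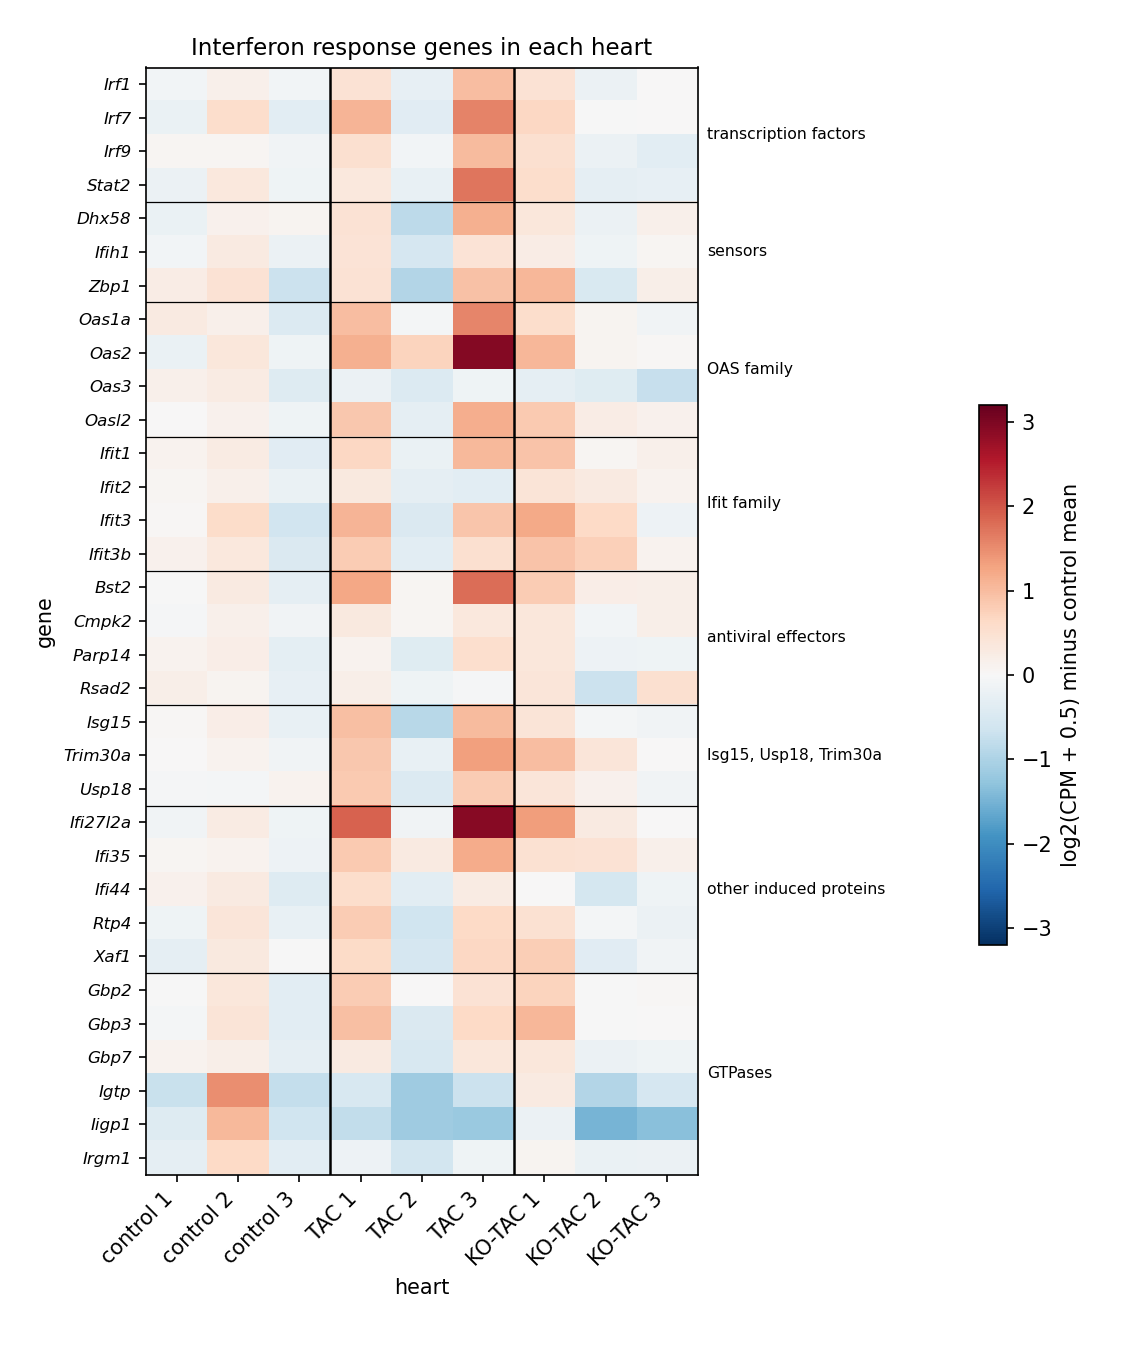
Level of each of the 33 genes (rows, grouped by role) in each of the 9 hearts (columns), as log2(CPM + 0.5) minus the mean of the 3 control hearts, with red above and blue below it. TAC replicates 1 and 3 and KO-TAC replicate 1 are red for most genes, TAC replicate 2 is mostly pale or blue, and Igtp, Iigp1 and Irgm1 are reddest in control replicate 2.

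The same hearts stood apart in cell type markers. The 2 TAC hearts with high members, replicates 1 and 3, had endothelial marker sums of 1650 and 2070 CPM, against 1020 in TAC replicate 2, 1030 to 1070 in control and 1110 to 1200 in KO-TAC hearts. Their macrophage and monocyte sums were 332 and 467 CPM, against 222 in TAC replicate 2 and 247 to 270 in control hearts. The higher sum in TAC replicate 1 lay in abundant genes, with 113 CPM of Lyz2 and 61.4 of C1qa against 79.2 to 88.4 and 25 to 28.8 in control hearts. Of the 12 markers, 6 had a positive and 6 a negative TAC to control difference (median 0.05), and the median marker stood at -0.04 in TAC replicate 1 and 0.71 in TAC replicate 3, relative to the control mean on the log2(CPM + 0.5) scale. KO-TAC replicate 1 had a macrophage and monocyte sum of 415 CPM, against 262 and 250 in the other KO-TAC hearts, with an endothelial sum of 1110 CPM, no higher than theirs. Markers of T, NK and B cells summed to 3.44 to 5.35 CPM in control hearts, to 4.7, 2.59 and 7.22 in TAC replicates 1, 2 and 3, and to 7.51, 3.36 and 6.82 in KO-TAC replicates 1, 2 and 3. Neutrophil markers summed to 1.23 to 2.3 CPM in control hearts, to 3.52, 1.17 and 10.5 in the TAC hearts, and to 4.45, 1.76 and 4.46 in the KO-TAC hearts. Both sums were lowest of all hearts in TAC replicate 2, and they were high in TAC replicate 3 and KO-TAC replicate 1, but also in KO-TAC replicate 3, where the median member was at 0.01. Markers of plasmacytoid dendritic cells, which specialise in making type I interferon, summed to 0.759 to 1.5 CPM over the 9 hearts. The part of these marker differences in the levels of the interferon response genes was not tested.

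**Figure D3:**
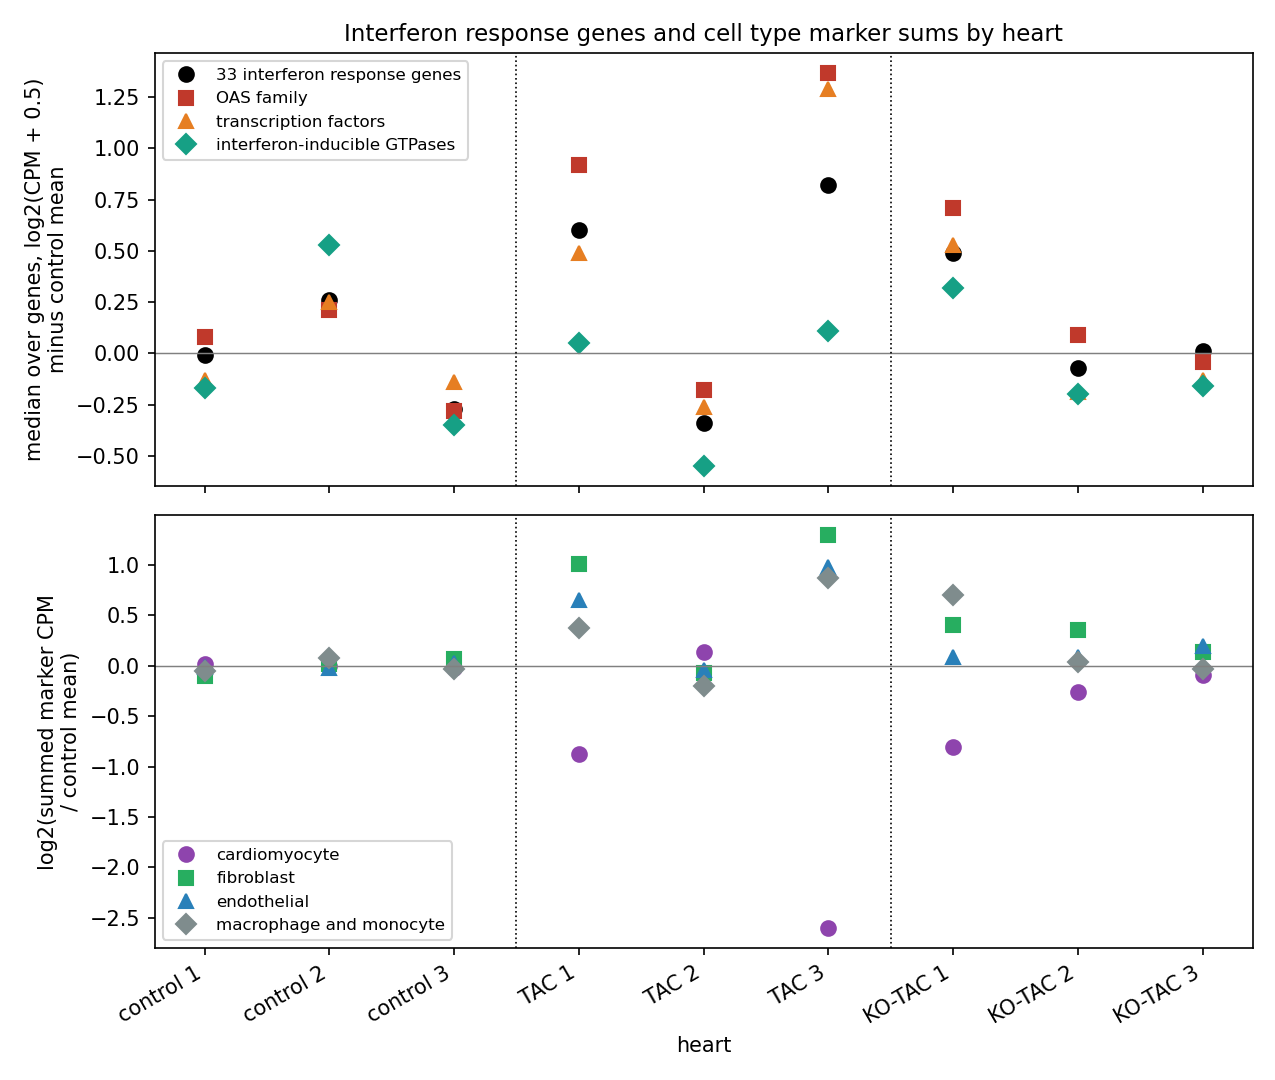
Upper panel, median over genes of log2(CPM + 0.5) minus the control mean in each heart for the 33 genes and for 3 of their role groups. Lower panel, log2 of the summed CPM of cell type markers over the control mean, showing that the hearts with high medians (TAC replicates 1 and 3 and KO-TAC replicate 1) also had the lowest cardiomyocyte sums, 47500, 14300 and 49900 CPM.

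Among the transcription factors, Stat2, the partner of Irf9 in the complex formed after type I interferon, stood at 18.9, 27.2 and 19.3 CPM in control hearts, 27.2, 18 and 72.1 in TAC hearts, and 31.6, 17.5 and 17.7 in KO-TAC hearts. TAC replicate 3 alone lay above the range of the other 8 hearts, and the remaining TAC hearts lay within or just below the control range. The fitted TAC to control log2 difference of 0.84 (SE 0.47, adjusted p = 0.32 by edgeR) became 0.04 without that heart, and the KO-TAC to TAC difference of -0.81 (SE 0.47, adjusted p = 0.7 by edgeR) became -0.01. Irf7, the factor that amplifies type I interferon production, stood at 6.62, 11.6 and 5.93 CPM in control hearts, 16.9, 5.86 and 24.1 in TAC hearts, and 12.4, 7.59 and 7.76 in KO-TAC hearts. Its TAC to control log2 difference was 0.95 (SE 0.47), and 0.48 without TAC replicate 3. Its KO-TAC to TAC log2 difference was -0.75 (SE 0.47), and -0.29 without that heart. Irf9 ranged from 12.6 CPM in KO-TAC replicate 3 to 32.7 in TAC replicate 3. Irf1, a factor raised most strongly by interferon gamma, ranged from 18.4 in TAC replicate 2 to 44.6 in TAC replicate 3. For both, the 3 groups overlapped.

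The OAS genes encode enzymes that answer double-stranded RNA by making short oligoadenylates, the activators of RNase L. Oasl2 is an OAS-like protein of the same family. Oas2 (GRCm38, chromosome 5, 120730333 to 120749853, minus strand) stood at 8.53, 12.9 and 8.91 CPM in control hearts, 22.7, 16.5 and 79.3 in TAC hearts, and 21.2, 10.6 and 10.2 in KO-TAC hearts. All TAC hearts lay above all controls, with TAC replicate 3 more than 3-fold above the next heart, and KO-TAC replicate 1 lay between TAC replicates 2 and 1. The TAC to control log2 difference was 1.96 (SE 0.57, adjusted p = 0.14 by edgeR). Without TAC replicate 3 it was 0.94. With DESeq2 the adjusted p was 0.014, and over all alternatives it ranged from 0.0044 to 0.4. The KO-TAC to TAC log2 difference of Oas2 was -1.50 (SE 0.56, adjusted p = 0.65 by edgeR), and -0.48 without TAC replicate 3.

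Oas2 and Ifi35 were the 2 members higher in every TAC than in every control heart, where 14.1% of all genes were so, and 1 member, Iigp1, was lower without overlap, where 14% of all genes were. Between KO-TAC and TAC, 0 members were separated in either direction, against 5.17% of all genes higher and 4.8% lower. Between KO-TAC and control, 2 members were higher without overlap, Oasl2 and Ifi35, against 12.9% of all genes, and 0 were lower, against 13.6%.

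Oasl2 stood at 9.95, 11 and 9.05 CPM in control hearts, 18.6, 8.06 and 23.0 in TAC hearts, and 18.3, 11.9 and 11 in KO-TAC hearts. TAC replicate 2 was the lowest of all 9 hearts, and the lowest KO-TAC heart lay above the highest control by less than the rounding shown. The log2 difference was 0.73 (SE 0.36) between TAC and control and 0.46 (SE 0.36, adjusted p = 0.87 by edgeR) between KO-TAC and control. Oas1a ranged from 1.72 CPM in control replicate 3 to 8.43 in TAC replicate 3, with a TAC to control log2 difference of 1.07 (SE 0.45, adjusted p = 0.22 by edgeR) and 0.59 without TAC replicate 3. Its transcripts share 57.6% of their stretches of 50 bases with other genes, Oas1g first among them, so its counts are uncertain. Oas3 was the least abundant member, with 0 counts in KO-TAC replicate 3, at most 34 counts in any heart, and 0.125 to 0.506 CPM in the other 8 hearts.

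**Figure D4:**
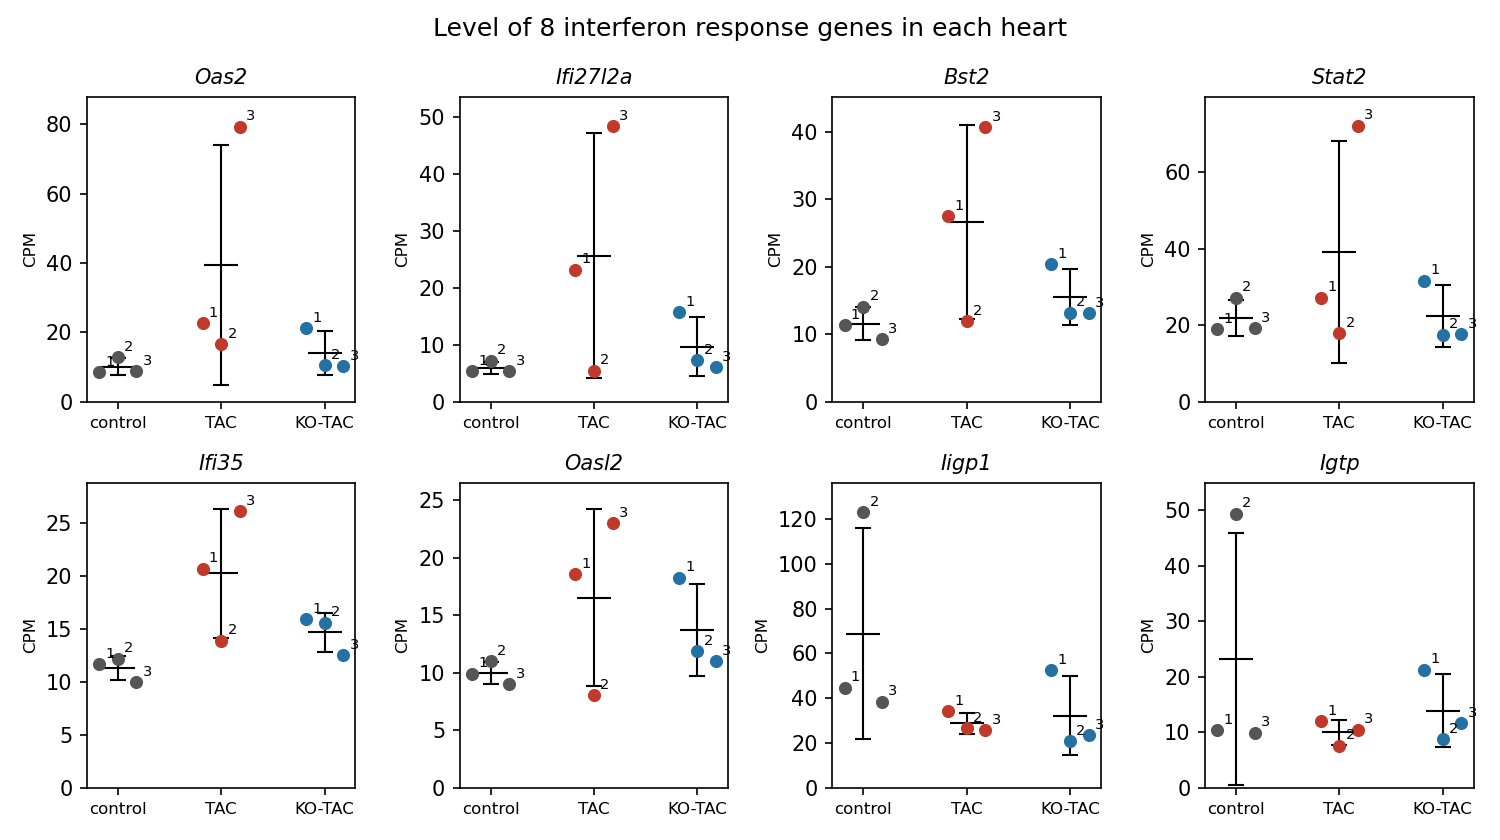
CPM (y axis, from 0) of 8 genes in each heart, with points numbered by replicate and bars showing the group mean ± SD (n = 3). Oas2, Ifi27l2a, Bst2 and Stat2 are highest in TAC replicate 3, at 79.3, 48.4, 40.7 and 72.1 CPM, while Iigp1 and Igtp are highest in control replicate 2, at 123 and 49.4 CPM.

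Of the sensors, Ifih1, which encodes the RNA sensor MDA5, ranged from 6.32 CPM in TAC replicate 2 to 12.9 in TAC replicates 1 and 3, and the control hearts at 8.19 to 11.5 lay inside that range. Dhx58, which encodes the related LGP2, ranged from 1.01 CPM in TAC replicate 2 to 5.59 in TAC replicate 3. Zbp1, a sensor of Z-form nucleic acid, ranged from 0.187 CPM in TAC replicate 2 to 2.27 in KO-TAC replicate 1. All 3 sensors had their lowest level of the series in TAC replicate 2.

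The Ifit genes, a cluster on chromosome 19, encode proteins that bind viral RNA and block its translation. Ifit3b stood at 4.06, 4.72 and 2.5 CPM in control hearts, 6.78, 2.81 and 5.38 in TAC hearts, and 7.37, 6.46 and 3.94 in KO-TAC hearts. KO-TAC replicate 1 was highest, and each group overlapped the others. Its KO-TAC to control log2 difference was 0.66 (SE 0.39, adjusted p = 0.86 by edgeR). Ifit3 ranged from 4.93 CPM in control replicate 3 to 18.9 in KO-TAC replicate 1, and shares 51.2% of its stretches of 50 bases with other genes, Ifit3b first among them. How reads that fit both were counted is not stated in the sources used. Ifit1 ranged from 3.10 CPM in control replicate 3 to 9.08 in TAC replicate 3. Ifit2 differed from its neighbours in the cluster: TAC replicate 3 had the lowest level of the series, 12.2 CPM, and KO-TAC replicate 1 the highest, 20.8. The KO-TAC to TAC log2 difference of Ifit2 was 0.36 (SE 0.22, adjusted p = 0.71 by edgeR).

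Bst2, or tetherin, a membrane protein that holds budding virus on the cell surface, stood at 11.4, 14.1 and 9.29 CPM in control hearts, 27.5, 11.9 and 40.7 in TAC hearts, and 20.4, 13.2 and 13.1 in KO-TAC hearts. TAC replicates 1 and 3 were the highest hearts, KO-TAC replicate 1 was next, and TAC replicate 2 lay within the control range. The TAC to control log2 difference was 1.21 (SE 0.40, adjusted p = 0.16 by edgeR), and 0.76 without TAC replicate 3. The KO-TAC to TAC log2 difference was -0.78 (SE 0.39, adjusted p = 0.68 by edgeR), and -0.33 without that heart.

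The other effectors differed less between hearts. Parp14, an ADP-ribosyltransferase that regulates cytokine signalling, stood at 29.4, 31.6 and 21.7 CPM in control hearts, 29.7, 20.5 and 39.9 in TAC hearts, and 35.1, 24.2 and 24.9 in KO-TAC hearts, with the groups overlapping. Rsad2, or viperin, which makes a chain-terminating nucleotide, had group means of 20.2 ± 3.3 CPM in control hearts, 20.1 ± 2.4 in TAC hearts, and 22.4 ± 8.8 in KO-TAC hearts (SD, n = 3). Over hearts it ranged from 12.3 CPM in KO-TAC replicate 2 to 28.8 in KO-TAC replicate 3. Cmpk2, a nucleotide kinase encoded beside Rsad2, ranged from 6.85 to 9.64 CPM. The high level of TAC replicate 3 in Oas2, Stat2 and Bst2 was thus not seen in Rsad2, at 19.5 CPM in that heart, or in Ifit2.

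Isg15, a ubiquitin-like protein attached to other proteins after interferon, ranged from 1.09 CPM in TAC replicate 2 to 5.42 in TAC replicate 3. Usp18, which removes Isg15 and damps receptor signalling, ranged from 1.86 to 5.17 CPM, lowest in TAC replicate 2 and highest in TAC replicate 1. Trim30a, a tripartite motif protein, ranged from 8.86 CPM in TAC replicate 2 to 26.9 in TAC replicate 3, and its TAC to control log2 difference was 0.81 (SE 0.38, adjusted p = 0.25 by edgeR). In all 3 genes, TAC replicate 2 lay below all control hearts while TAC replicates 1 and 3 lay above all of them.

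Ifi27l2a, a small hydrophobic protein induced by type I interferon, had the highest level per length of the members, 29.8 CPM per kilobase of exon, followed by Bst2 at 19.9 and Ifi35 at 8.91. Ifi27l2a stood at 5.40, 7.22 and 5.35 CPM in control hearts, 23.2, 5.46 and 48.4 in TAC hearts, and 15.7, 7.33 and 6.03 in KO-TAC hearts. TAC replicates 1 and 3 and KO-TAC replicate 1 were the 3 highest hearts, and TAC replicate 2 lay within the control range. Its TAC to control log2 difference, 2.10 (SE 0.66, adjusted p = 0.15 by edgeR), was the largest among the members and was 1.24 without TAC replicate 3. With DESeq2 the adjusted p was 0.022, in a range of 0.0017 to 0.4 over all alternatives. The KO-TAC to TAC log2 difference was -1.41 (SE 0.65, adjusted p = 0.67 by edgeR), and -0.55 without TAC replicate 3. With limma-voom the adjusted p of that difference was 0.046, the lowest of a range that reached 1.

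Ifi35, a leucine zipper protein that modulates innate signalling, stood at 11.7, 12.2 and 10 CPM in control hearts, 20.7, 13.9 and 26.1 in TAC hearts, and 15.9, 15.6 and 12.5 in KO-TAC hearts. It was the 1 member whose lowest TAC heart (13.9) and lowest KO-TAC heart (12.5) both lay above the highest control (12.2). Of all genes, 14.1% lay so in TAC and 12.9% in KO-TAC. The share in both was not counted, and the 2 comparisons share the control hearts. The log2 difference was 0.84 (SE 0.24, adjusted p = 0.14 by edgeR) between TAC and control. With DESeq2 the adjusted p was 0.034, in a range of 0.0016 to 0.4 over all alternatives. Without TAC replicate 3 the log2 difference was 0.60. Between KO-TAC and control it was 0.38 (SE 0.24, adjusted p = 0.86 by edgeR). Of the remaining members of this kind, Xaf1, which antagonises an inhibitor of apoptosis, ranged from 6.33 to 16.6 CPM. Rtp4, a chaperone for receptors that also restrains virus replication, ranged from 3.21 to 9.75 CPM, and Ifi44 ranged from 2.26 to 5.53 CPM. In all 3, the groups overlapped.

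The interferon-inducible GTPases act in the defence against intracellular parasites and are raised mainly by interferon gamma. Of the 6 among the members, 3 (Iigp1, Igtp and Irgm1) had their highest level of the series in control replicate 2. Iigp1, the member with the highest CPM, stood at 44.7, 123 and 38.5 CPM in control hearts, 34.2, 26.7 and 25.7 in TAC hearts, and 52.7, 20.8 and 23.4 in KO-TAC hearts. Control replicate 2 was more than 2-fold above any other heart, and all 3 TAC hearts lay below all 3 controls. The TAC to control log2 difference was -1.25 (SE 0.49, adjusted p = 0.2 by edgeR), and -0.53 without control replicate 2. The KO-TAC to control difference was -1.09 (SE 0.49, adjusted p = 0.85 by edgeR), and -0.37 without that heart.

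Igtp stood at 10.4, 49.4 and 9.95 CPM in control hearts, 12.0, 7.60 and 10.5 in TAC hearts, and 21.3, 8.82 and 11.7 in KO-TAC hearts. Control replicate 2 was 4.86 times the mean of the other 2 controls. The TAC to control log2 difference of -1.21 (SE 0.61, adjusted p = 0.27 by edgeR) was -0.02 without that heart, and the KO-TAC to control difference of -0.74 (SE 0.60, adjusted p = 0.88 by edgeR) turned to 0.45. Irgm1 stood at 16, 30.6 and 15.2 CPM in control hearts and ranged from 12.9 to 20.9 over the 6 TAC and KO-TAC hearts. Its TAC to control log2 difference of -0.37 (SE 0.28) turned to 0.03 without control replicate 2. Irgm2, a close relative outside the members, stood at 22.8, 51.9 and 17.3 CPM in the control hearts. It overlaps Igtp on the same strand, and 11.8% of the stretches of 50 bases of Igtp are shared with other genes, Irgm2 first among them, so the counts of both are uncertain. Relative to the mean of the other 2 controls, control replicate 2 was at 2.59 for Irgm2, 1.8 for Tgtp1, 1.62 for Tgtp2 and 1.11 for Ifi47, the immunity-related GTPases of the further list of induced genes.

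The 3 guanylate-binding proteins among the members, larger GTPases of the same response, stood in control replicate 2 within the range of the TAC and KO-TAC hearts. Gbp2 ranged from 11.2 CPM in control replicate 3 to 25.9 in TAC replicate 1, with 18.8 in control replicate 2. Gbp3 ranged from 8.16 CPM in TAC replicate 2 to 24.5 in KO-TAC replicate 1, and Gbp7 from 14.0 in TAC replicate 2 to 26.0 in TAC replicate 3 and KO-TAC replicate 1. Guanylate-binding genes outside the members varied in this respect, with control replicate 2 at 3.62 times the mean of the other 2 controls for Gbp10, 2.02 for Gbp8 and 1.07 to 1.46 for Gbp4, Gbp5, Gbp6 and Gbp9. Control replicate 2 had marker sums of 270 CPM for macrophages and monocytes and 5.35 CPM for T, NK and B cells, against 247 and 250, and 3.44 and 3.91, in the other controls, and their part in its GTPase levels was not tested.

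The interferon transcripts themselves were at or near the limit of detection. Of 21 interferon genes in the table, 0 passed the low-count filter and 17 had 0 counts in all 9 hearts, Ifng among them. A count of 0 allows up to 3 counts, which corresponds to 0.022 to 0.047 CPM in these libraries and covers counting error only. Of the other 4, Ifnz had 1 to 9 counts in every heart, with 9 in TAC replicate 3 and in KO-TAC replicate 1. Ifnab had 8 counts in control replicate 2 and 1 in TAC replicate 1, and in KO-TAC replicate 1 Ifnb1 had 3 counts and Ifna16 had 1. The summed interferon level was 0.215 CPM in control replicate 2 and at most 0.104 CPM in the other 8 hearts.

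All 6 receptor genes were tested and 0 passed by edgeR. At an unadjusted p under 0.05 there were 3, 1 and 0 in the 3 comparisons, against 21.3%, 7.45% and 5.76% of all genes. DESeq2 called Ifngr1 higher in TAC than in control, against 5.67% of all genes called higher. Limma-voom called Ifngr1 higher and Ifngr2 and Il10rb lower in TAC than in control, and the reverse in KO-TAC against TAC. With limma-voom, 18.2% of all genes were called higher and 19.8% lower in TAC than in control. Between KO-TAC and TAC, 3.3% were called higher and 1.93% lower. The interferon gamma receptor chains differed in opposite directions between TAC and control. Over the TAC hearts, Ifngr2 had the order of the cardiomyocyte marker sum (47500, 96000 and 14300 CPM). Ifngr1 had the order of the fibroblast marker sum (3420, 1610 and 4160 CPM). The part of cell types in these receptor levels was not tested. Ifngr2 stood at 123, 134 and 131 CPM in control hearts, 39.5, 111 and 25.9 in TAC hearts, and 68.2, 100 and 115 in KO-TAC hearts, so that every TAC heart lay below every control. Ifngr1 stood at 38.4, 35.9 and 42.0 CPM in control hearts, 82.4, 48.0 and 91.2 in TAC hearts, and 58.6, 47.5 and 38.1 in KO-TAC hearts, so that every TAC heart lay above every control. Il10rb, a chain shared with the type III interferon receptor, was also lower in every TAC than in every control heart, at 95.2 to 102 CPM in control and 49.9, 92.3 and 36.4 in TAC hearts. The type I receptor chain Ifnar1 ranged from 20 to 34.8 CPM, with the groups overlapping.

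A further list of 56 interferon-induced genes outside the 33 showed the same balance. Of the 54 tested, the TAC to control difference was positive for 49 and negative for 5 (median 0.53), the KO-TAC to TAC difference positive for 11 and negative for 43 (median -0.31), and the KO-TAC to control difference positive for 43 and negative for 11 (median 0.25). By edgeR 0 of the 54 passed in any comparison. At an unadjusted p under 0.05 there were 18, 7 and 0, against 21.3%, 7.45% and 5.76% of all genes. DESeq2 called 6 higher in TAC than in control, against 5.67% of all genes. It called 2, Ifitm1 and Ifi205, lower in KO-TAC than in TAC, against 0.614%. Limma-voom called 21 higher and 1 lower in TAC than in control, against 18.2% and 19.8% of all genes. It called 9 lower in KO-TAC than in TAC, against 1.93%, and 0 between KO-TAC and control, against 5.2% in either direction. Ifitm3, which blocks virus entry, stood at 33.3, 35.1 and 33.9 CPM in control hearts, 111, 44.3 and 199 in TAC hearts, and 67.4, 43.4 and 37.7 in KO-TAC hearts. TAC replicate 3 was again highest, but TAC replicate 2 lay above the controls here. Ly6e, a membrane protein that limits virus entry, stood at 102 to 117 CPM in control and at 231, 108 and 295 in TAC hearts. Slfn5 stood at 94.6 to 109 CPM in control and at 151, 93.8 and 187 in TAC hearts, and Helz2 at 38.8 to 42.6 in control and 67.8, 42.0 and 102 in TAC hearts. In these 3 genes, TAC replicate 2 lay within or just below the control range.

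Of the other pathway genes, 7 kinases and factors (Jak1, Irf3, Jak2 and Tyk2 the most abundant) had 6 positive and 1 negative TAC to control differences. By edgeR 0 passed, with 2 at an unadjusted p under 0.05, against 21.3% of all genes. DESeq2 called 0, and limma-voom called 2 higher and 1 lower, against 18.2% and 19.8% of all genes. Jak1 stood at 146 to 166 CPM in control and at 80.1, 158 and 85.7 in TAC hearts. Irf3, which acts upstream of the interferon genes, stood at 21.0 to 25.9 CPM in control and at 37.8, 27.6 and 65.5 in TAC hearts, without overlap. Jak2 stood at 28.3 to 29.2 CPM in control and at 26.6, 30.2 and 47.5 in TAC hearts. Tyk2 stood at 18.7 to 21.3 CPM in control and at 19.7, 15.5 and 34.3 in TAC hearts. Of the 7, 0 had a positive and 7 a negative KO-TAC to TAC difference (median -0.34). Between KO-TAC and control it was 3 positive and 4 negative (median -0.01). In both comparisons edgeR, DESeq2 and limma-voom called 0 of the 7. By edgeR 0 were at an unadjusted p under 0.05, against 7.45% and 5.76% of all genes.

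The 16 nucleic acid sensing genes had 11 positive and 5 negative TAC to control differences. By edgeR 0 passed, with 4 at an unadjusted p under 0.05, against 21.3% of all genes. DESeq2 called 1 higher and 1 lower, against 5.67% and 2.87% of all genes. Limma-voom called 5 higher and 2 lower, against 18.2% and 19.8%. Between KO-TAC and TAC, 5 differences were positive and 11 negative (median -0.13). By edgeR 4 were at an unadjusted p under 0.05, against 7.45% of all genes. EdgeR and DESeq2 called 0, and limma-voom 1 higher and 1 lower, against 3.3% and 1.93%. Between KO-TAC and control, 7 were positive and 9 negative (median -0.05). The 3 tests called 0, with 0 at an unadjusted p under 0.05 by edgeR, against 5.76%. The most abundant of the 16, Mavs, the mitochondrial adaptor of the RNA sensors, stood at 45.2 to 50.6 CPM in control and at 21.7, 60.5 and 20.9 in TAC hearts. Its lowest TAC hearts were thus those in which the members were high and the cardiomyocyte marker sum was low. Adar, an RNA-editing enzyme, stood at 19.7 to 22.2 CPM in control and at 31.0, 15.1 and 38.6 in TAC hearts. Samhd1, which degrades nucleotides, ranged from 27.9 to 40.4 CPM, and the kinase Tbk1 from 16.3 to 21.3 CPM.

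Among the 5 feedback inhibitors, 0 passed by edgeR. At an unadjusted p under 0.05 there were 2, 1 and 1, against 21.3%, 7.45% and 5.76% of all genes. DESeq2 called Socs3 in 2 comparisons, as higher in TAC against control and as lower in KO-TAC against TAC. The shares of all genes so called were 5.67% and 0.614%. Limma-voom called Pias1 lower in TAC and in KO-TAC than in control, against 19.8% and 2.8% of all genes. Socs3, an inhibitor of Jak kinases raised mainly by the Stat3 pathway, stood at 4.61, 3.71 and 4.02 CPM in control hearts, 5.48, 8.41 and 25.7 in TAC hearts, and 4.68, 2.67 and 2.17 in KO-TAC hearts. Every TAC heart lay above every heart of the other groups, and here TAC replicate 2 exceeded TAC replicate 1. Pias1, a SUMO ligase that restrains this pathway, stood at 24.4 to 30.1 CPM in control and at 17.6, 23.8 and 16.3 in TAC hearts, without overlap. Ptpn2 ranged from 8.12 to 12.1 CPM and Ptpn6 from 2.94 to 9.66 CPM, both phosphatases of this pathway.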

How the data were processed

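Total RNA was extracted with Trizol and libraries were made with a directional NEBNext kit, per the labels. The authors deposited 1 table of whole-number counts per gene symbol for the 9 hearts, without normalization as far as the values show. The submitters' processing notes name HISAT2 2.2.1, StringTie 2.2.1, Trim Galore 0.6.10, SAMtools 1.15 and, DESeq2 1.42.0, and the genome builds mm10 and GRCm38. The counting tool, annotation, strand setting and treatment of reads with several matches were not given in the sources used, so counts of paralogs and overlapping genes are uncertain. Besides the members named above for it, Ifit3b (45%), Gbp7 (12.7%) and Rtp4 (11.6%) share stretches of 50 bases with other genes, and other members share less. Irf9, Rtp4, Parp14, Igtp and Gbp7 overlap another gene on the same strand.

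Hearts were grouped by the labels. All 9 libraries entered 1 fit with edgeR 4.0.16 (glmQLFit and glmQLFTest, R 4.3.3) with TMM factors, filterByExpr at a minimum count of 10, and two-sided p-values with Benjamini-Hochberg adjustment over 19051 genes. The code of the fit was run on simulated counts with the same spread for all genes and no heart that stood apart. That run does not show how the fit performs on these hearts. The common biological coefficient of variation was 42.1%. An exact permutation test of 3 against 3 hearts was not used. CPM are TMM-scaled, and heart levels used a pseudocount of 0.5 CPM. Gene positions and exon lengths are from GENCODE's annotation of GRCm38, and shared sequence was counted in stretches of 50 bases of its transcripts. Promoter windows are from RefSeq.

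The members and the lists of pathway and marker genes were chosen with earlier results of these data known. Every member is named with at least its range over hearts. Values in every heart are given for members without overlap in a comparison, for the 3 members of highest CPM and the 3 of smallest p in each comparison, and for others chosen after their values were seen (Irf7 and Igtp, and, outside the members, Irgm2, Tgtp1, Tgtp2, Ifi47, Gbp4, Gbp5, Gbp6, Gbp8, Gbp9, Gbp10 and Ifnz). Of each pathway list the genes of highest CPM are named, and 1 gene of the pathway is not reported here. Alternatives tried were RLE factors, DESeq2 1.42.0, limma-voom with quality weights (limma 3.58.1), no low-count filter, at least 1 CPM in 3 libraries, each library left out, removal of mitochondrial genes, a replicate block, and a fit restricted to the compared groups.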

Additional observations from a re-analysis of the deposited data

How the results depend on the processing

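With 3 hearts a group and large differences within the TAC group, the number of members called depended on the test. The share of all genes called depended on it too. Between TAC and control 0 members were called by edgeR, 3 by DESeq2 and 18 by limma-voom with quality weights. Of all genes, 0%, 8.53% and 38% were called in either direction. With 1 library left out, 0 to 11 members were called, the 11 without TAC replicate 2, where 27.5% of all genes were called. Between KO-TAC and TAC 0 members were called by edgeR, against 0% of all genes, and 1 by limma-voom with quality weights, against 5.23%. With any library left out it was 0 members, against at most 0.0653% of all genes. Between KO-TAC and control it was 0 under every alternative run, against at most 5.2% of all genes, by limma-voom. The median log2 difference of the members ranged, with 1 library left out, from 0.23 to 0.79 for TAC against control, from -0.59 to 0.03 for KO-TAC against TAC, and from -0.05 to 0.33 for KO-TAC against control. Under all other alternatives each median kept its sign. By title number, the deviations of same-numbered hearts had correlations from -0.255 to 0.124. The deposited table numbers the TAC hearts differently from the sample titles. By its numbers the correlations ran from -0.0294 to 0.327, the highest between TAC replicate 2 and KO-TAC replicate 3. TAC replicate 3 and KO-TAC replicate 1, which share neither number, had 0.355. With a replicate block by title number, 0 members were called in any comparison, and the medians were 0.41, -0.23 and 0.09. A block by the other numbering was not fitted. With 1 library left out, the TAC to control difference of Irgm1 ranged from -0.55 to 0.03 and the KO-TAC to control difference of Igtp from -1.18 to 0.45, both positive only without control replicate 2. Of the 99 member differences (33 members in 3 comparisons), 56 kept their sign under all 17 alternatives and 43 did not, 8 of these in TAC against control, 17 in KO-TAC against TAC and 18 in KO-TAC against control. The cause of these changes was not tested beyond the libraries named. Depth limits Oas3 and the interferon genes, whose counts were near 0.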
